A study of Rattus norvegicus with 36 samples.

Results

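A set of 125 genes, of 15936 expressed well enough to be compared, had levels that went with the individual rat: an animal that was high for such a gene in the nucleus accumbens (NAc) was also high in the prefrontal cortex (PFC), and one that was low was low in both. The genes were chosen by those measured values. For each gene, log2 CPM (CPM is the read count scaled to the size of its library) had the mean of each group subtracted, and the genes kept were those whose NAc and PFC values correlated at a Pearson r above 0.9 over the 17 rats that gave both regions. A further cut, at an 8-fold difference in mean CPM between regions, removed 0 genes, and the largest difference among the 125 was 4.86-fold. The agreement between regions is therefore a description of how the genes were picked and carries no test.

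The animals were rats of the strain given as Sparague Dawley in the labels, all trained in the rat gambling task, in which the choice among 4 light signals sets the size and probability of reward and punishment. Of 19 rats, 9 were classed as risk-averse and 10 as risk-seeking from their settled choices. Bulk RNA sequencing of the PFC (medial, per the protocol) and NAc gave 36 libraries, 9 in each combination of region and preference, from tissue and not from sorted cells. Rat N9 gave NAc only and rat R6 PFC only, both risk-seeking, so 9 risk-averse and 8 risk-seeking animals entered the correlation. The filter, scaling and group means used all 36 libraries. The labels name no untrained rats, drug or genetic change, and give no age, sex, litter or sequencing batch. Titles name the animals, so the groups compare separate rats.

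In an outbred strain, animals differ from each other at many positions of the genome, and a position that alters transcription or splicing of a nearby gene can act in every tissue in which the gene is used. A gene's level can also be shared across an animal's tissues through its hormones, its age, the time and handling at dissection, or the way its RNA was prepared. Reference gene models add another element, since reads from an allele that differs from the reference may be counted poorly or assigned to a similar copy. None of these sources was tested here.

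The files identify genes by Ensembl number only. None of the 32623 identifiers could be paired with a symbol (0 matched the gene table used here), so gene families, cell type markers and the regions' own defining markers could not be looked up, and no coordinates or sequences are given. Genes are named below by identifier, a few for each pattern. Because the tissue was bulk, fewer cells of a type and less RNA per cell cannot be told apart. Between 18436025 and 34761269 reads were counted on genes in a library. The share of reads that fell outside annotated genes, called the unassigned share here, was 23.3% to 31.0% as the mean of each rat's pair of libraries, and rat B2 stood apart at 31.0%, followed by B3 at 28.2%, R7 at 26.7% and BR9 at 26.6%. All 4 of these rats were risk-averse.

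Across all 15936 genes the median correlation between regions was 0.427, with quartiles of 0.202 and 0.615, and 95% of genes lay below 0.797. The 125 members had a median of 0.932, 41 lay above 0.95, and the highest value was 0.992. The threshold fell in a continuous tail. The 5 members nearest to it had r of 0.9024, 0.9016, 0.9011, 0.9009 and 0.90002, and the 5 genes just below it had 0.89945, 0.8994, 0.8991, 0.8989 and 0.8988. A cut at 0.8 would have taken 763 genes. A correlation over 17 animals can rest on 1 of them, so each rat was left out in turn and the correlation recomputed. The group means were not recomputed, so they still held the left-out rat, which can leave a shared shift in both regions. Of the members, 75 stayed above 0.9 whichever rat was left out, and 50 fell to 0.9 or below for at least 1 rat. Of those 50, 9 fell below 0.8 and 3 below 0.7, and 14 fell furthest when B2 was left out. The lowest value was 0.489, for ENSRNOG00000015753 without BR2, a gene singled out after its values were seen.

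The level of a member in an animal varied over a wider range than that of a typical gene. Spread was measured on log2 CPM after the mean of each group was subtracted, so differences between the full preference groups are not part of it. The group means included N9 and R6, so the 8 paired risk-seeking rats can keep a shared offset. Such an offset enters both the spread and the correlation between regions. The standard deviation (SD) over the 17 rats of the mean of both regions had a median of 0.477 for members and 0.140 for all genes tested. On the same subtracted values, the members spanned a median of 2.89-fold between the lowest and the highest rat, and all genes 1.42-fold. A range of at least 2-fold was seen for 83 members (66.4%, against 19.0% of all genes), at least 4-fold for 54 (43.2% against 2.33%) and at least 8-fold for 41 (32.8% against 0.628%). Seen from the other side, 41 of the 100 genes with a range of at least 8-fold were members. A wide range was not required: 42 members spanned less than 2-fold, and the narrowest had an SD of 0.0817. A correlation needs spread in both regions, so the choice of genes itself favours a wide range.

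**Figure D1:**
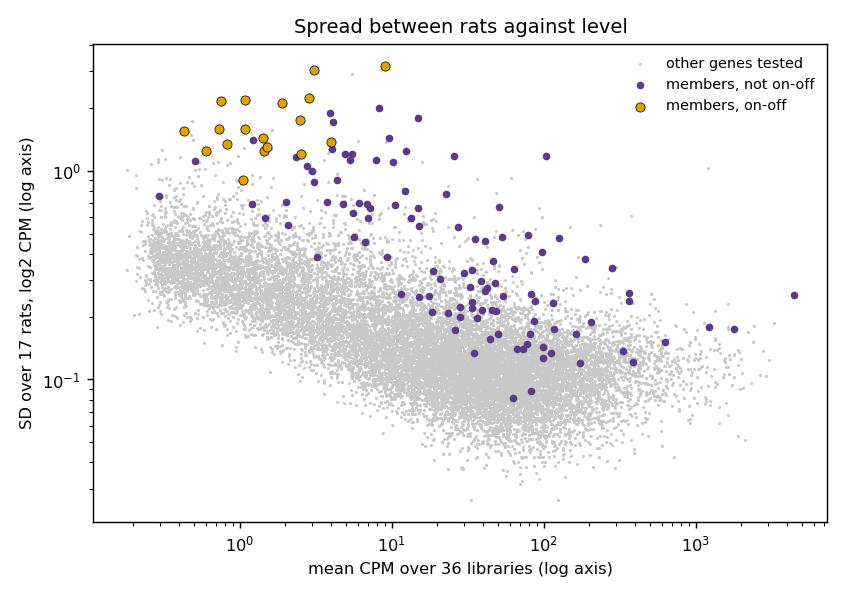
Each point is 1 of the 15936 genes, with its mean CPM over 36 libraries on the horizontal log axis. The vertical log axis gives the SD over 17 rats of the mean log2 CPM of both regions, with group means subtracted. Grey points are other genes, purple points are members, and the 18 yellow points are members that were near 0 in some rats and at 1 CPM or more in others. The SDs of members run from 0.0817 to 3.20: many members lie above most other genes of a like level, and some lie among them or below.

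Members were found at all levels of expression. CPM counts reads and is not per length, so it ranks genes by how many reads they gave. The median mean CPM was 18.7 for members and 20.8 for all genes, and members ran from 0.297 to 4444 CPM. Low counts scatter more, so the spread was compared at like levels. Under 10 CPM, the 50 members had a median SD of 1.19 and all genes 0.266, and at 10 CPM or more the 75 members had 0.25 and all genes 0.113. The regions carried the differences to a similar extent, with a median ratio of the SD in NAc to that in PFC of 0.985 (range 0.634 to 1.99). Of the members, 65 were higher in PFC and 60 in NAc on average, by a median of 1.21-fold, and 12 differed at least 2-fold.

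The widest spread belonged to ENSRNOG00000006365, with an SD of 3.20 and an r of 0.986. Cut at the widest gaps between neighbouring rats, its levels fell into 3 steps. In 6 rats (B3, BR5, N7, R1, R7 and R9) the mean of both regions was 0 to 0.164 CPM, in 9 rats it was 10.3 to 13.7, and in BR9 and B5 it was 20.5 and 23.1. The gaps between the steps were wider than the spread within them. By library, B5 had 19.1 CPM in NAc and 27.1 in PFC, BR9 had 20.8 and 20.2, and R1 had 0 in both. Rats of both preferences stood on each step, with 4 risk-averse and 2 risk-seeking rats on the lowest. The unpaired libraries had 11.2 CPM (N9, NAc) and 11.4 CPM (R6, PFC), in the range of the middle step. They were not among the correlated pairs but entered the group means, so they were not held out from the choice of genes.

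A like pattern with other rats was seen for ENSRNOG00000060523 (SD 3.06, r 0.990). In 7 rats (B3, B5, BR9, N1, N3, N7 and R7) its mean level was 0 to 0.110 CPM, and in the other 10 it was 4.62 to 6.28. No rat lay between. The low rats were 4 risk-averse and 3 risk-seeking animals, and N9 and R6 both had 0 CPM. The highest correlation of all, 0.992, belonged to ENSRNOG00000052828, which gave reads in a minority of rats. In 12 rats it was at 0 to 0.0147 CPM, in R9, R2, N6 and R1 at 1.47 to 2.41, and in BR9 at 4.00. It was the NAc that held most of these reads, with 6.37 CPM in NAc and 1.63 in PFC for BR9, and 4.11 and 0.719 for R1. The unpaired libraries had 3.07 CPM (N9, NAc) and 0.398 (R6, PFC), so both of these rats were among those with reads.

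One rat could also stand alone. ENSRNOG00000027271 (r 0.992) had 0.734 CPM in NAc and 1.41 in PFC of BR4, and 15.0 to 37.0 CPM as the mean of both regions in the other 16 rats. Without BR4 its correlation was 0.955, but the group means subtracted still included BR4. That leaves the other risk-seeking rats with a shared shift in both regions, so the value may overstate how far the other 16 rats agreed.

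**Figure D2:**
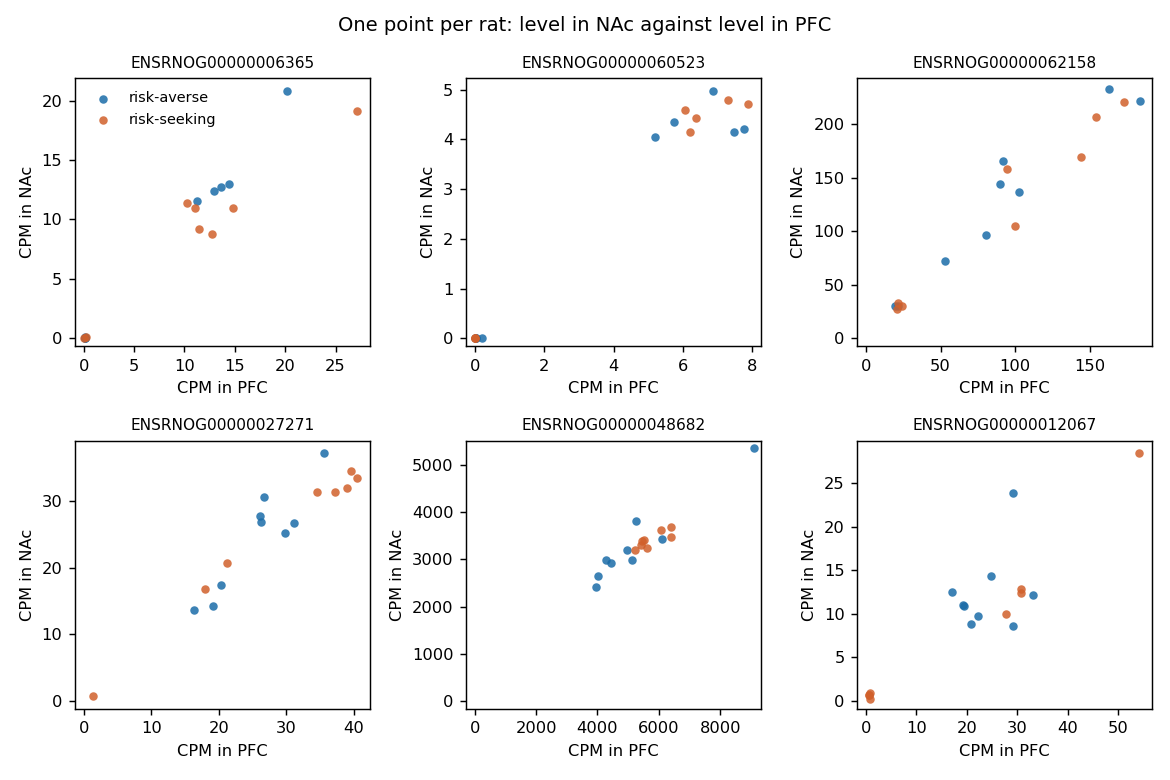
Each panel shows 1 member and each point 1 of the 17 rats, with CPM in PFC on the horizontal axis and CPM in NAc on the vertical axis (blue, 9 risk-averse; orange, 8 risk-seeking). The points of ENSRNOG00000006365, ENSRNOG00000060523 and ENSRNOG00000062158 fall into separate groups along the diagonal, BR4 lies alone near 0 for ENSRNOG00000027271, and BR2 lies alone at the top for ENSRNOG00000048682.

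To count such patterns over all genes, a rat was called low for a gene with 3 or fewer counts in both libraries (3 counts equalled 0.0868 to 0.154 CPM, depending on the library) and high with at least 1 CPM in both. A gene was called on-off if at least 1 rat was low and at least 1 was high. There were 33 such genes among all tested (0.207%), and 18 of the 33 were members (14.4% of members, 54.5% of on-off genes). A gene near 0 in both regions of some rats and not of others has, by that pattern, a high correlation between regions, so these shares describe the choice of genes. Over the 18 members and 17 rats, 52 of 306 combinations were low, 141 high and 113 between. A state low in one region and high in the other was seen 0 times, which the choice of genes by agreement between regions favours. For ENSRNOG00000006365 only R1 met this cut for low, and the other 5 rats of its lowest step, with slightly more reads, counted as between. By this cut 9 of the members had 1 low rat, 5 had 2 or 3, and 4 had 6 or more. The cut can leave out other rats near 0. In ENSRNOG00000026051 and ENSRNOG00000042547, picked after their values were seen, 1 rat each was low. The 6 and 10 rats called between had 0.138 to 0.345 and 0.111 to 0.307 CPM as the mean of both regions. A count of 3 or fewer limits the level only to that floor, by counting error alone, and does not show that the gene was silent.

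**Figure D3:**
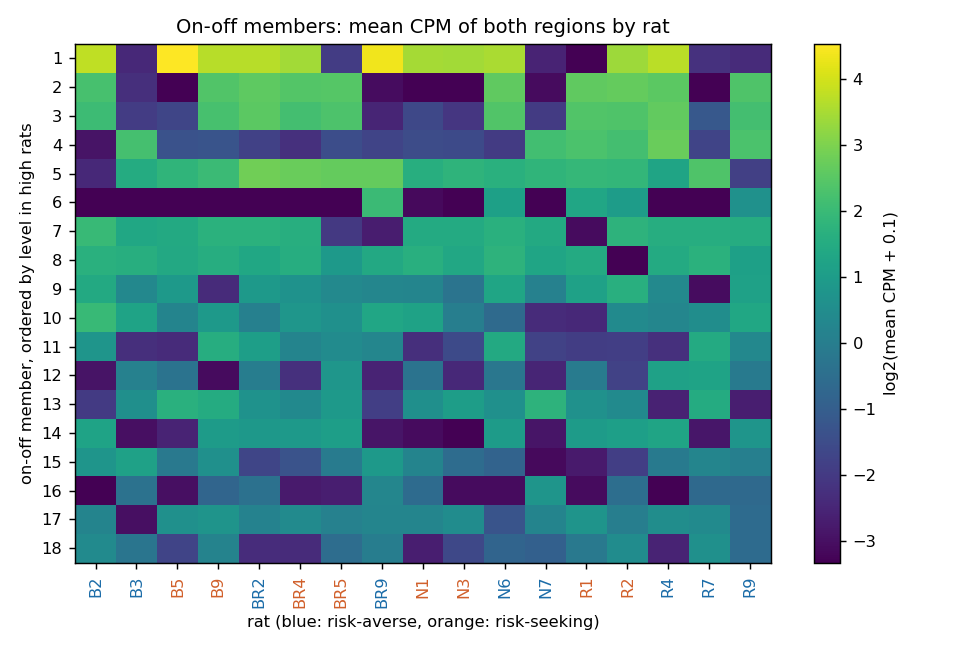
Rows are the 18 on-off members, ordered by their level in high rats, and columns are the 17 rats (blue names, risk-averse; orange names, risk-seeking). Colour gives the log2 mean CPM of both regions and not the low call. Dark cells fall under names of both colours, and they include rats called between as well as low rats.

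Low states occurred at both preferences. Of the 52 low combinations, 28 were in risk-averse rats (of 9 animals) and 24 in risk-seeking rats (of 8). Members with many low rats weigh most in this count, and ENSRNOG00000052828 alone gave 12 of the 52. Low rats of both preferences occurred in 8 of the 18 members, high rats of both preferences in 15, and both together in 6. No rat carried most of the low states either: each of the 17 was low for 1 to 5 of the 18 members. The unpaired libraries could be read the same way from 1 region each. N9 was low for 6, high for 10 and between for 2, and R6 was low for 3, high for 8 and between for 7.

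Wide gaps between rats were counted over all members, on-off members included. On rat means with the group means subtracted, the largest gap between neighbouring rats was at least 2-fold in 34 members (27.2%) and in 95 of all genes (0.596%). In 28 of the 34 the smaller side of the gap held at least 2 rats, in 5 a single rat lay below the others, and in 1 a single rat lay above. The widest gap, 4.99 on the log2 scale, was that of ENSRNOG00000060523, between the rats near 0 and the others. In CPM, with no group mean subtracted, ENSRNOG00000062158 showed a gap well above the floor: 5 rats (B5, BR5, R1, R4 and R7) had 24.2 to 27.4 CPM and the other 12 had 62.4 to 203. The lower 5 were 2 risk-averse and 3 risk-seeking rats. N9 had 25.7 CPM in NAc, within the range of the lower rats, and R6 had 92.3 CPM in PFC, within that of the higher ones.

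The members did not move as a single programme. The rat means of 2 members had a median absolute correlation of 0.194, and 87 of 7750 pairs (1.12%) passed 0.8 in absolute value, close to the 1.13% of pairs among all genes tested. These are correlations, on values with group means subtracted, over 17 rats that share library size and scaling, given as descriptions. Joining members through pairs above 0.8 put 36 into 7 sets, of 18, 5 and 5 members and 4 of 2, and left 89 joined to none.

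The set of 18 held 14 members whose correlation with its most abundant gene, ENSRNOG00000048682, was positive, and 4 for which it was negative. Members were joined through chains of pairs, so not all of them moved together. The absolute correlation between its members had a median of 0.778 and a lowest value of 0.0551. Its changes were small, with SDs of 0.0817 to 0.545, and 0 of the 18 were on-off. ENSRNOG00000048682 averaged 3373 CPM in NAc and 5516 in PFC, the highest of all members. In risk-averse NAc it ran from 2416 through a median of 2982 to 5355 CPM, and in risk-seeking NAc from 3187 through 3402 to 3725. In PFC the corresponding values were 3967, 4974 and 9087 for risk-averse rats, and 5213, 5619 and 6396 for risk-seeking rats. The risk-averse libraries held both the lowest (B2) and the highest (BR2), and the risk-seeking ones sat within that span. Without BR2 its correlation between regions was 0.830, below the threshold. ENSRNOG00000034254, the second by CPM (1938 in NAc, 1653 in PFC), was lowest in B2 at 1188 CPM as the mean of both regions and 1492 to 2067 in the other 16 rats. Without B2 its correlation was 0.837. Group means were not recomputed for this value or for the 0.830 above.

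The same set moved with the unassigned share. The absolute correlation over 17 rats of its members' levels with that share, both taken after subtracting the preference mean, had a median of 0.849, and 14 of the 18 were above 0.7. Without B2 the median was 0.757 and 10 of 18 were above 0.7. B2 and B3, the rats with the highest unassigned shares, had the lowest mean scores of the set (-2.17 and -1.29 SD units), whereas BR2 had the highest (1.45) at a share of 24.6%. The part of the unassigned share in this set was not tested. The members as a whole did not follow it more than other genes: the median absolute correlation was 0.274 for members and 0.368 for all genes, and 15 members (12%) and 12% of all genes were above 0.7.

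The other sets followed different animals. A set of 5, 3 of them on-off, was led by ENSRNOG00000047706, and the median absolute correlation between its members was 0.977. ENSRNOG00000047706 had 1.23 to 1.73 CPM in 7 rats and 6.06 to 9.91 in the other 10. The 7 lower rats were B3, B5, BR9, N1, N3, N7 and R7, the same animals that were near 0 for ENSRNOG00000060523, another member of the set. N9 and R6, at 1.30 and 1.23 CPM, were at or near the lower level of ENSRNOG00000047706 as well. The set was joined on these same rat means, so the shared rats and the high correlation within it follow largely from the joining. In this set 4 members moved together and 1 moved against them, so 1 gene was higher where the others were lower. Its members' absolute correlations with the unassigned share had a median of 0.105 (0.417 without B2), and none of the 5 reached 0.7.

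The other set of 5 was led by ENSRNOG00000062127, with 4 members together, 1 against, and a median absolute correlation between members of 0.830. The level of ENSRNOG00000062127 ran from 74.4 CPM in B5 to 196 in N7, with 10 rats at 132 CPM or less and 7 at 153 or more. ENSRNOG00000062158, described above, belonged to this set. The absolute correlation with the unassigned share had a median of 0.117 here. Members of a set may be neighbours or near-identical copies that share reads. The counts and identifiers do not show which, and whether strand was used in counting is not given here, so each member of such a set is uncertain as a separate gene.

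**Figure D4:**
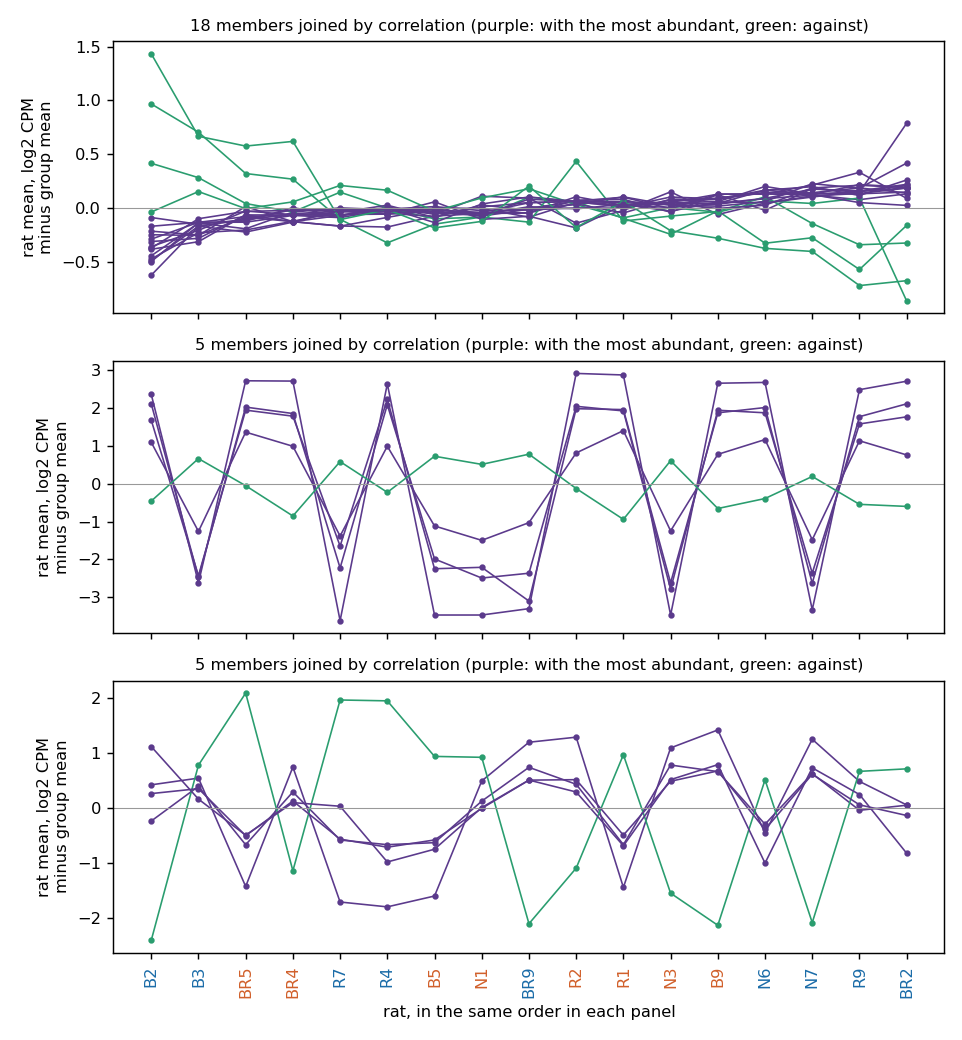
The 3 panels show the sets of 18, 5 and 5 members, with each line 1 gene, the 17 rats on the horizontal axis in the order of the first set's score, and the rat mean of log2 CPM minus the group mean on the vertical axis (purple, with the most abundant gene; green, against it). The first set runs from B2 and B3 to BR2 with small changes, and the second set jumps between levels from rat to rat.

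The extremes, taken after the group means were subtracted, were spread over many rats. B2 was the lowest rat for 20 of the 125 members and the highest for 11, BR2 and N7 were the highest for 12 each, and B9 was the lowest for 1. The libraries of the unpaired rats lay outside the CPM range of the 17 other libraries of their region for 20 members in N9 (16%, against 16.7% of all genes) and for 17 in R6 (13.6%, against 9.22%).

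The remaining question was whether members differed between risk-seeking and risk-averse rats, which the choice of genes did not use because group means had been subtracted. In PFC, edgeR's quasi-likelihood test called 13 of the 119 members that passed its filter (10.9%) at a Benjamini-Hochberg adjusted p under 0.05, and 23.3% of the 15128 genes tested were called. Of the 13, 11 were higher in risk-seeking rats (11.8% of all genes were called in that direction) and 2 were lower (11.4% of all genes). The other 6 members did not pass the filter in PFC. The members' share was below that of all genes. At an unadjusted p under 0.05 there were 24 members (20.2%) against 36.9% of all genes. Members also scattered more: their median standard error (SE) was 0.198 on the log2 scale, against 0.0748 for all genes, and the median absolute difference was 0.194 against 0.132.

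The members called in PFC mostly had a narrow range over rats. Members of wide spread had to differ by more to be called, so this is in part a limit of the test. Of the 13, 9 belonged to the set of 18, 12 spanned less than 2-fold over rats, and 0 were on-off. Their differences ran from 0.15 to 0.37 on the log2 scale. ENSRNOG00000055023 had the smallest p of the 13: in PFC it ran from 8.47 through a median of 13.7 to 17.95 CPM in 9 risk-averse rats and from 16.2 through 17.3 to 18.7 CPM in 9 risk-seeking rats. The groups overlapped at the top of the risk-averse range, where BR2 had 17.95 CPM. The difference was 0.37 ± 0.09 (log2, SE; edgeR adjusted p = 0.00959). ENSRNOG00000046698 ran from 132 through 168 to 195 CPM in risk-averse PFC and from 188 through 192 to 205 in risk-seeking PFC. Its difference was 0.20 ± 0.06 (edgeR adjusted p = 0.0138). In both genes the risk-seeking rats sat in a narrow band near the top of the risk-averse range, and B2 was the lowest rat.

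The 2 members called lower in risk-seeking PFC had unlike distributions. ENSRNOG00000020411 ran from 73.6 through 75.2 to 90.2 CPM in risk-averse rats and from 59.0 through 68.1 to 82.6 in risk-seeking rats, a difference of -0.21 ± 0.07 (log2, SE; edgeR adjusted p = 0.0262). Its lowest 5 rats as the mean of both regions, at 59.0 to 66.6 CPM, were all risk-seeking (BR4, BR5, B5, R1 and N3), and the next rat was at 72.8. It belonged to no set, and its correlation with the unassigned share was 0.01. ENSRNOG00000000924 ran from 32.5 through 43.8 to 53.5 CPM in risk-averse PFC and from 30.5 through 33.4 to 46.6 in risk-seeking PFC, a difference of -0.30 ± 0.10 (edgeR adjusted p = 0.0302). With the ambiguous share, described next, as a covariate, its difference changed sign to 0.0146 (edgeR adjusted p = 0.982). ENSRNOG00000000924 was one of the 4 members of the set of 18 that moved against the set's most abundant gene, and it was highest in B2.

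The read categories differed between the preference groups as well. The unassigned share was 25.0% ± 1.98 (SD, n = 9) in risk-averse PFC and 23.3% ± 0.666 in risk-seeking PFC, and 27.6% ± 2.61 and 25.7% ± 1.02 in NAc. With this share as a covariate, edgeR called 1 member in PFC and 334 of all genes. The ambiguous share, reads that overlap more than one gene, was 0.655% ± 0.0417 and 0.719% ± 0.0331 in PFC, and with it as a covariate edgeR called 0 members and 0 of all genes (4 members and 902 genes at an unadjusted p under 0.05). Without B2, B3, R7 and BR9, edgeR called 0 members and 1 of all genes (8 members and 2829 genes unadjusted). None of the 4 members named for PFC passed under any of these 3 settings. Single animals mattered too: the count fell from 13 to 6 without B2, 3 without B3, 7 without B5, B9 or R2, 4 without R1 or R4, 5 without R6 and 6 without R7. Over all genes, leaving out 1 rat moved the count from 3521 to between 2264 (without B3) and 4227 (without BR2). ENSRNOG00000055023 and ENSRNOG00000046698 kept their calls when any single rat was left out. ENSRNOG00000020411 missed the threshold without B3 (edgeR adjusted p = 0.0539) or R1 (0.0504), and ENSRNOG00000000924 missed it without any 1 of B2, B3, R1, R4, R6 and R7 (0.0544 to 0.0655).

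In NAc, edgeR called 0 of 120 members, and 0% of the 15418 genes tested. At an unadjusted p under 0.05 there were 13 members (10.8%) against 2748 genes (17.8%), and the lowest adjusted p among members was 0.110, for ENSRNOG00000020411. DESeq2 called 1 member, the same gene (adjusted p = 0.0422), and 533 of all genes. Without R9, edgeR called 944 of all genes and still 0 members, and without any other single rat it called 0 of both. ENSRNOG00000020411 ran from 72.1 through 76.6 to 84.7 CPM in risk-averse NAc and from 58.1 through 65.0 to 83.2 in risk-seeking NAc, a difference of -0.22 ± 0.07 (log2, SE). The difference for ENSRNOG00000055023 was 0.26 ± 0.09 (edgeR adjusted p = 0.146) and for ENSRNOG00000011379 0.22 ± 0.08 (edgeR adjusted p = 0.148). The regions come from the same rats, and members were chosen for like values in both, so a like difference in NAc is no separate evidence for one in PFC.

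**Figure D5:**
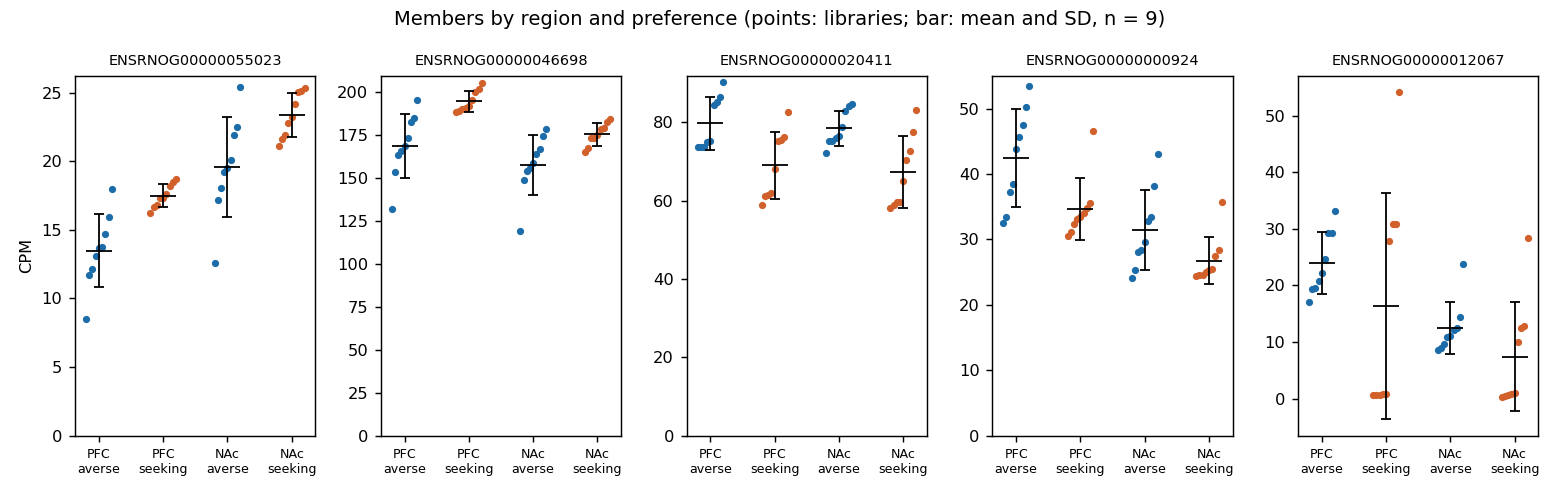
Each panel shows 1 member, with CPM on the vertical axis and the 4 groups of region and preference on the horizontal axis (points, libraries, blue for risk-averse and orange for risk-seeking; bars, mean and SD, n = 9). The groups overlap in all 5 members, and the risk-seeking libraries of ENSRNOG00000012067 split into a group under 1 CPM and a group above it.

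Over both regions in one model (limma-voom with the rat as a random effect), 27 of 125 members (21.6%) passed an adjusted p under 0.05, and 22.3% of the 15936 genes tested did. Of the 27, 22 were higher in risk-seeking rats (12.3% of all genes passed in that direction) and 5 were lower (10.0%). All 13 members called in PFC were among the 27. The 27 held 12 members of the set of 18, 18 that spanned less than 2-fold over rats, and 2 on-off members. The model uses 1 correlation within rats for all genes, estimated at 0.395, whereas the members were chosen for correlations above 0.9, so its standard errors are too small for them. When each of the 17 rats with both regions entered as 1 value (limma, an alternative added after the data were seen), 3 of 125 members passed (2.4%) and 8.76% of all genes did, and the members' SEs were larger by a median of 1.37 times. All 3 were among the 27. The count of 27 fell to 15 without B2 and to 17 without B3 or R4, and the count over all genes, 3561, ranged from 2532 to 4283 when 1 rat was left out. It fell to 10 with the unassigned share as a covariate (1486 of all genes), to 0 with the ambiguous share (16 members and 505 of all genes at an unadjusted p under 0.05 in limma) and to 2 without B2, B3, R7 and BR9 (7 of all genes).

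The smallest p among members in that model belonged to ENSRNOG00000012067, a member of no set. In risk-averse rats it ran from 8.66 through 11.0 to 23.9 CPM in NAc and from 17.1 through 22.2 to 33.1 in PFC. In risk-seeking rats it ran from 0.264 through 0.909 to 28.4 CPM in NAc and from 0.558 through 0.787 to 54.1 in PFC. The risk-seeking rats were of 2 kinds: 6 of 10 (B5, B9, BR5, N1, N9 and R6) were under 1 CPM in every library they gave, and BR4, N3, R1 and R2 were at 9.98 CPM or more in both regions. None of the 9 risk-averse rats was under 1 CPM. The limma difference over both regions was -2.51 ± 0.52 (log2, SE; adjusted p = 0.00149). It was -2.05 with 1 value per rat (limma adjusted p = 0.145). Within PFC edgeR gave -0.54 ± 0.75 (adjusted p = 0.643) and within NAc -0.74 ± 0.70 (adjusted p = 0.626). The fits differ in libraries, scale and variance model, and what sets them apart was not tested. The call therefore held in 1 of these 4 fits.

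The other members named over both regions were those of PFC. ENSRNOG00000055023 differed by 0.33 ± 0.07 (limma adjusted p = 0.00203) and ENSRNOG00000046698 by 0.19 ± 0.04 (limma adjusted p = 0.00229), which with 1 value per rat became 0.18 (limma adjusted p = 0.0558). ENSRNOG00000020411 differed by -0.22 ± 0.05 (limma adjusted p = 0.00271). Of the 4 genes named over both regions, ENSRNOG00000055023 and ENSRNOG00000020411 kept their calls with 1 value per rat.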

How the data were processed

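The deposited tables hold unnormalised counts, as whole numbers, for 32623 gene identifiers in each library, which the authors made with Trimmomatic, STAR 2.5.3a and HTSeq 0.9.0 on builds named as Rnor_6.0 and rn6, per the submitters' processing notes. Per the labels' protocols, total RNA was prepared with a TruSeq RNA version 2 kit and read as pairs on a NovaSeq instrument. Neither the annotation release nor the strand setting is named in those notes or labels, so overlapping and antisense genes and near-identical copies are uncertain. HTSeq's summary categories were kept out of library sizes. The unassigned share is reads in no annotated feature over these plus gene and ambiguous reads, and the ambiguous share is over ambiguous plus gene reads.

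Groups follow the labels, and titles pair the regions of 17 rats. Within groups, 144 library pairs had a chi-square of 6.97 to 44.9 per degree of freedom between their counts, above sampling noise, and none was counted as a repeat deposit. Genes passing edgeR's filterByExpr over the 4 groups were scaled by TMM, with a prior count of 2 in log2 CPM. Within a region, edgeR 4.0.16 (glmQLFit with robust=TRUE, glmQLFTest, R 4.3.3) was fitted to 18 libraries. Both regions were fitted with limma 3.58.1 (voom, duplicateCorrelation over rats, region as a term). P-values were adjusted over all genes tested. Standard errors from edgeR are the absolute log2 difference over the square root of F. The tests were also run on simulated counts, with rat effects drawn independently for each gene and no read-category difference between groups. That outcome is not given here and does not cover shared variation between rats.

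The members and lists were chosen with earlier results of these data known. Identifiers are named by rule, at most 2 in each direction for each point: the on-off members highest in CPM in high rats, the largest SD, the highest correlation, the highest CPM, the leaders of the 3 largest sets, and the smallest p in each preference comparison. Gene lists and cell type markers needed symbols and were not analysed here. Alternatives were DESeq2 1.42.0, RLE factors, other filters and prior counts, Spearman correlation, read-category covariates, leaving out rats, and 1 value per rat, the last added after the data were seen.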

Additional observations from a re-analysis of the deposited data

Results flagged for a closer look

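In 8 of 60 groups of 9 libraries, over 15 named members, 1 library stood apart from the others of its group by Dixon's test at the 95% level. Chance flags about 1 in 20 groups, but these genes were named for wide spread, high correlation or small p, and the NAc and PFC groups hold mostly the same rats, so the 60 groups are neither a random choice nor independent. For 2 genes the same rat stood apart in both regions, which the choice of genes by agreement between regions favours. ENSRNOG00000048682 reached 5355 CPM in NAc of the risk-averse rat BR2, with the others at 2416 to 3810, and at 9087 CPM in PFC of BR2, with the others at 3967 to 6107. ENSRNOG00000000924 reached 35.8 CPM in NAc of the risk-seeking rat R2, with the others at 24.4 to 28.4, and at 46.6 CPM in PFC of R2, with the others at 30.5 to 35.5. ENSRNOG00000046698 was low in risk-averse NAc of B2 (119 CPM, the others 149 to 178). ENSRNOG00000012067 was high in risk-averse NAc of B3 (23.9 CPM, the others 8.66 to 14.3) and in risk-seeking NAc of BR4 (28.4 CPM, the others 0.264 to 12.9). ENSRNOG00000052828 reached 6.37 CPM in NAc of the risk-averse rat BR9, and the next library was at 3.23.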

How the results depend on the processing

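With Spearman's correlation the number of members was 73, of which 44 were among the 125. It was 128 with RLE factors, 123 with a prior count of 0.5, 157 with no group mean subtracted, 114 at a mean of at least 1 CPM, and 124 to 185 (the last without R9) when 1 rat was left out, with 105 to 122 of the 125 among them. For these counts with 1 rat left out, the whole rule was run again, group means included. The count of members called in PFC (13) was 17 with DESeq2, 12 with RLE factors, 6 with no count filter, 1 with the unassigned share as a covariate, 0 with the ambiguous share, 0 without the 4 rats of highest unassigned share, and 3 to 17 when 1 rat was left out. In NAc it stayed 0 under all alternatives run except DESeq2, which gave 1. Over both regions (27) it was 25 with RLE factors, 23 with no count filter, 10 with the unassigned share, 0 with the ambiguous share, 2 without the 4 rats, 3 with 1 value per rat, and 15 to 32 when 1 rat was left out. Without the replicate block, that is with paired libraries treated as independent, it was 31. The log2 difference of ENSRNOG00000000924 in PFC changed sign with the ambiguous share as a covariate, to 0.0146 from -0.30. The ambiguous share depends in part on which genes are expressed. The causes of these changes were not tested, except that leaving out rats leaves fewer samples. With 9 libraries a group, members of wide spread had to differ by more than other genes to be called.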
